A study of Mus musculus with 4 samples.

Results

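The genes described here are the insulin-like growth factor *Igf1*, the receptors *Igf1r* and *Igf2r*, and the binding proteins *Igfbp2*, *Igfbp3*, *Igfbp4*, *Igfbp5*, *Igfbp6* and *Igfbp7*, as transcribed in mouse embryonic fibroblasts (MEF) with and without *Hmga2*. They were chosen by name, with earlier results of these data known. *Igf2* and *Igfbp1* are not among them and are given below as other genes of the pathway. Together the members are 9 of the 25909 named genes and 19 of the 63759 transcripts that were measured. All 9 were detected in all 4 libraries.

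IGF1 is a secreted peptide hormone that cells also use as a local growth signal. It binds IGF1R, a receptor tyrosine kinase that signals through insulin receptor substrates to PI3K and AKT, while IGF2R takes up IGF2 and delivers it to lysosomes without a kinase of its own. The IGFBP proteins are secreted carriers that hold IGFs outside the cell, extend their lifetime and limit their access to IGF1R, and secreted proteases such as PAPPA release the ligand by cutting them. Fibroblasts are a well-known source of IGF1 and of several IGFBPs, and connective tissue cells depend on IGF1R for normal growth.

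The study asked how HMGA2, a chromatin protein that binds AT-rich DNA in the minor groove, acts on transcription at rest and after transforming growth factor beta 1 (TGFB1), a cytokine that drives matrix production in fibroblasts. Total RNA was sequenced with a strand-specific, single-end protocol from 4 libraries, which were *Hmga2*+/+ Ctrl, *Hmga2*+/+ TGFB1, *Hmga2*-/- Ctrl and *Hmga2*-/- TGFB1. The cells were immortalised C57BL/6 MEF from embryonic day 15.5, grown from the trunk after head, limbs, tail and inner organs had been taken off. All were held overnight in medium with 1% FCS, and the TGFB1 libraries then received 10 ng/ml of the human recombinant protein for 24 h, where Ctrl cells received water. One characteristic of the knockout samples spells the genotype *Hmga*-/-, while the titles read *Hmga2*-/-. Each condition is 1 library of an immortalised line, and the methods speak of duplicates of 1 experiment without stating whether they were pooled. No difference given here has a replicate check among these libraries. Differences between the *Hmga2*+/+ and *Hmga2*-/- lines that do not come from *Hmga2* cannot be told apart from the genotype.

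Levels are RPKM, the reads on a transcript scaled to its length and to the mapped reads of its library. Depth was between 56145000 and 57295000 mapped reads per library, and 3 reads on a transcript of 1000 bases correspond to 0.0524 to 0.0534 RPKM. Brackets hold 95% intervals, exact for changes and approximate (normal, on the log scale) for differences between responses. They cover counting error only, since reads copied by PCR are not independent molecules and the spread between cultures was not measured. A gene was counted as higher or lower when its RPKM differed at least 1.5-fold, 0.58 on the log2 scale. The targeted gene matched the labels, with 14.8 and 40.7 RPKM of *Hmga2* in the *Hmga2*+/+ Ctrl and TGFB1 libraries and 0 RPKM in both *Hmga2*-/- libraries. The fibroblast label was matched by its markers, since 10 of 10 reached 1 RPKM in at least 1 library with a summed level of 1900 to 2290 RPKM, against 0.443 to 1.21 RPKM for the 6 epithelial markers. Skeletal muscle markers summed to at most 0.052 RPKM, with *Myod1*, *Myog*, *Myf5* and *Ckm* at 0. Of the 4 chondrocyte markers 2 reached 1 RPKM, *Sox9* and *Acan*, and their list summed to 2.84 to 3.74 RPKM in the Ctrl libraries and 6.63 to 7.15 RPKM in the TGFB1 libraries. The 4 neural markers, of which *Tubb3* alone reached 1 RPKM, summed to 1.27 RPKM in each Ctrl library and to 3.05 and 4.49 RPKM in the *Hmga2*+/+ and *Hmga2*-/- TGFB1 libraries. The 5 endothelial markers, with *Kdr* and *Tek* above 1 RPKM and *Tie1* at 0, summed to 3.89 and 4.86 RPKM in the *Hmga2*+/+ libraries and to 7.12 and 8.14 RPKM in the *Hmga2*-/- libraries, and the 5 haematopoietic markers, with *Cd68* above 1 RPKM, to 1.29 to 1.66 RPKM. The part of these marker differences in the values below was not tested. In bulk RNA, fewer cells of a type and less RNA per cell cannot be told apart.

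TGFB1 went with opposite shifts within the binding protein family in both genotypes. *Igfbp4* and *Igfbp6* were lower and *Igfbp7* was higher after TGFB1 in *Hmga2*+/+ and in *Hmga2*-/- MEF, by 2.54-fold to 4.97-fold. The *Igfbp4* response was the larger in *Hmga2*-/- MEF, by -0.67 on the log2 scale, and other members differed between genotypes too. Without TGFB1, *Igf1* was lower and *Igfbp3* higher in the absence of *Hmga2*. *Igfbp5* was 1.63-fold higher after TGFB1 in *Hmga2*+/+ MEF against a log2 change of 0.27 in *Hmga2*-/- MEF. By the other *Igfbp5* transcript these log2 changes lay closer, at 0.66 and 0.44.

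The promoters of the 3 binding proteins with the largest TGFB1 changes are shown first, because the same 3 genes passed 1.5-fold in both genotypes, 2 of them downward and 1 upward, and their start sites can so be compared. Each is the 250 bases just before the RefSeq start of the gene in the mouse build GRCm38.p6, read 5′ to 3′ on the strand of the gene. Capitals mark matches, on either strand, to 5 motifs that were searched. The SMAD-binding element was searched as CAGACA and the site of AP-1, a factor of FOS and JUN proteins, as TGACTCA. Forkhead factors such as FOXO were searched with the letters GTAAACA. The TATA box was searched as TATAAA and the GC box, bound by SP1, as GGGCGG, and no match shown overlaps another. The *Igfbp4* window is chr11:99040994-99041243 on the plus strand, the *Igfbp6* window is chr15:102143936-102144185 on the plus strand, and the *Igfbp7* window is chr5:77408046-77408295 on the minus strand.
*Igfbp4*: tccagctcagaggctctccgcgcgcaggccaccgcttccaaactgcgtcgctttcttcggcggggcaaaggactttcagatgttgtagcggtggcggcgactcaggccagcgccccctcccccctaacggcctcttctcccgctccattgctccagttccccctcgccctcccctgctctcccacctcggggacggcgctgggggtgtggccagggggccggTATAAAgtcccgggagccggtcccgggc
*Igfbp6*: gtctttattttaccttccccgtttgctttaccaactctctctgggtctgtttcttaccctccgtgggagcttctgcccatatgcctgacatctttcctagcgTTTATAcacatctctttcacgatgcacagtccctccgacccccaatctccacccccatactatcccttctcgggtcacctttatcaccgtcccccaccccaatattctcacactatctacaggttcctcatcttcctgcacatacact
*Igfbp7*: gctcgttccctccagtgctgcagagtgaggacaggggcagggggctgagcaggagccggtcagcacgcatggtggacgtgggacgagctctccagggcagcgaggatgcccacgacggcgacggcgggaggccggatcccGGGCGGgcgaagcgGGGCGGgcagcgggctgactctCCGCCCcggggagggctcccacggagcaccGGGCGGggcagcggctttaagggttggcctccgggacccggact

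The windows differ in composition. GC bases make up 69.2% of the *Igfbp4* window and 74.0% of the *Igfbp7* window, but 49.6% of the *Igfbp6* window, against a median of 52.4% over 32851 mouse promoters. The *Igfbp4* window holds TATAAA 28 bases before the start, a sequence found in 12.4% of all promoter windows, and the *Igfbp6* window holds its reverse complement 148 bases before the start. The *Igfbp7* window holds 4 GC boxes, at 110, 96, 74 and 44 bases before the start, where 32.7% of all windows hold at least 1. GC boxes were not particular to *Igfbp7*. Among members under 1.5-fold in every comparison, the *Igf2r* window and 1 *Igfbp2* window hold 3 each, and the *Igf1r* window holds 2. The other *Igfbp2* window and those of *Igf1*, *Igfbp3*, *Igfbp4*, *Igfbp5* and *Igfbp6* hold none. None of these 3 windows holds the SMAD, AP-1 or forkhead motif, which 17.1%, 4.46% and 3.17% of all windows hold. GENCODE begins the *Igfbp6* gene at 102144362, downstream of the RefSeq start, so the *Igfbp6* window does not adjoin that start. These are matches of letters in a short window, and no binding was measured here.

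The ligand *Igf1* lies on chromosome 10 from 87858265 to 87937047 on the plus strand (mm10), in the gene ENSMUSG00000020053.18, and its transcript with the longest gene body has a length of 7534 bases. By this transcript it was the lowest of the 9 genes in all 4 libraries, with 1.48 RPKM in *Hmga2*+/+ Ctrl, 0.825 in *Hmga2*+/+ TGFB1, 0.727 in *Hmga2*-/- Ctrl and 0.639 in *Hmga2*-/- TGFB1. These values rest on 627, 356, 310 and 274 reads. The *Hmga2*+/+ Ctrl library thus stood above the other 3, whose intervals overlap from neighbour to neighbour. After TGFB1, *Igf1* was 1.80-fold lower in *Hmga2*+/+ MEF, a log2 change of -0.85 [-1.04, -0.66]. The change in *Hmga2*-/- MEF was -0.19 [-0.43, 0.05], and the difference between both responses was 0.66 [0.36, 0.96]. Between genotypes, *Igf1* was 2.04-fold lower in the *Hmga2*-/- Ctrl library, and its log2 difference under TGFB1 was -0.37 [-0.60, -0.14]. A pseudocount of 1 RPKM is close to the level of *Igf1* itself. With it, the *Hmga2*+/+ TGFB1 and the Ctrl genotype changes shrank to -0.44 and -0.52 and no longer reached 1.5-fold. By qRT-PCR in these MEF, the study also reported less *Igf1* in the absence of *Hmga2*. For TGFB1 in *Hmga2*+/+ MEF it reported more *Igf1*, the opposite direction to the change given here. The qRT-PCR values were means of 3 independent experiments, while each condition here is 1 library. The reason for the opposite directions was not tested.

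**Figure D1:**
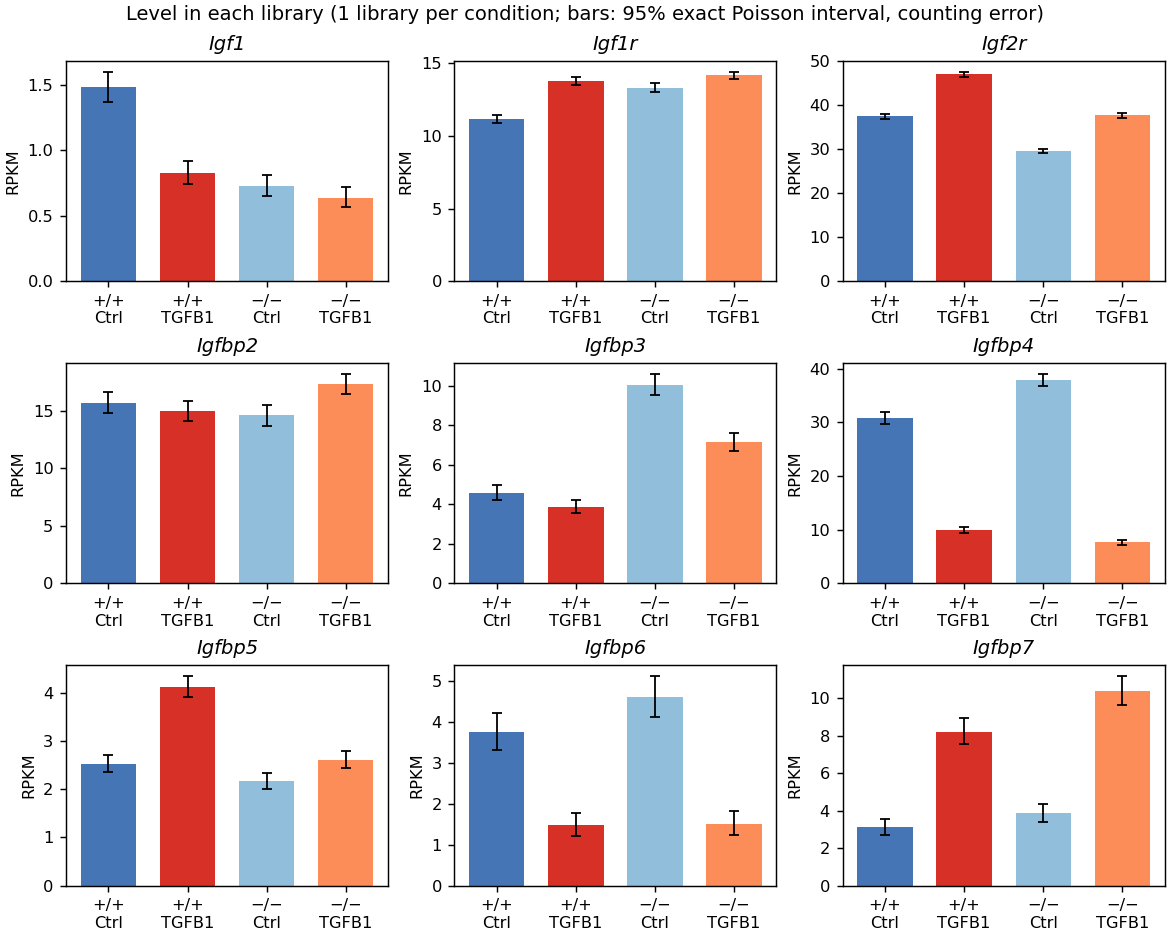
RPKM (vertical axes, each from 0) of the 9 IGF genes in the 4 libraries, as bars with 95% exact Poisson intervals. *Igf1* is highest in *Hmga2*+/+ Ctrl at 1.48 RPKM, *Igfbp3* in *Hmga2*-/- Ctrl at 10.0 RPKM, and *Igfbp4* and *Igfbp6* are low and *Igfbp7* high in both TGFB1 libraries.

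Neither receptor reached 1.5-fold in any of the 4 comparisons. *Igf1r*, on chromosome 7 from 67952257 to 68233667 on the plus strand, had 11.1, 13.8, 13.3 and 14.2 RPKM in the *Hmga2*+/+ Ctrl, *Hmga2*+/+ TGFB1, *Hmga2*-/- Ctrl and *Hmga2*-/- TGFB1 libraries. The *Hmga2*+/+ Ctrl library was the lowest, and the highest library stood 1.27-fold above it. TGFB1 went with log2 changes of 0.31 [0.26, 0.35] for *Hmga2*+/+ and 0.09 [0.05, 0.13] for *Hmga2*-/- MEF, a difference of -0.22 [-0.28, -0.16]. *Igf1* and *Igf1r*, the ligand and its receptor, thus had their extreme values in the same library, *Igf1* its highest and *Igf1r* its lowest.

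*Igf2r*, the clearance receptor for IGF2, was the most abundant member in 3 of the 4 libraries. On chromosome 17 from 12682406 to 12769706 on the minus strand, it had 37.5 RPKM in *Hmga2*+/+ Ctrl, 47.1 in *Hmga2*+/+ TGFB1, 29.6 in *Hmga2*-/- Ctrl and 37.8 in *Hmga2*-/- TGFB1. Both the treatment and the genotype went with a step of similar size, and each step stayed under 1.5-fold, while the highest library, *Hmga2*+/+ TGFB1, was 1.59-fold above the lowest, *Hmga2*-/- Ctrl. On the log2 scale *Igf2r* was 0.33 higher after TGFB1 in *Hmga2*+/+ and 0.35 higher in *Hmga2*-/- MEF, which differ by 0.02 [-0.02, 0.06]. The *Hmga2*-/- libraries were the lower ones, with log2 differences to *Hmga2*+/+ of -0.34 without and -0.32 with TGFB1. *Igf2*, the ligand that this receptor removes, was described after its values were seen. It had 51.8 and 49.2 RPKM in the *Hmga2*+/+ Ctrl and TGFB1 libraries and 53.1 and 37.1 RPKM in the *Hmga2*-/- Ctrl and TGFB1 libraries, so the *Hmga2*-/- TGFB1 library was the low one, with a log2 change on TGFB1 of -0.52 [-0.56, -0.48] in *Hmga2*-/- MEF.

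*Igfbp4*, a carrier mostly known to inhibit IGF action until PAPPA cuts it, carried the largest TGFB1 change of the 9 genes. It lies on chromosome 11 from 99041260 to 99052643 on the plus strand and follows the GC-rich, TATA-containing window shown above. Its level was 30.8 RPKM in *Hmga2*+/+ Ctrl, 9.90 in *Hmga2*+/+ TGFB1, 38.0 in *Hmga2*-/- Ctrl and 7.64 in *Hmga2*-/- TGFB1. Both Ctrl libraries were far above both TGFB1 libraries, and the *Hmga2*-/- pair was the wider. *Igfbp4* was 3.11-fold lower after TGFB1 in *Hmga2*+/+ MEF, a log2 change of -1.64 [-1.74, -1.54], and 4.97-fold lower in *Hmga2*-/- MEF, a change of -2.31 [-2.42, -2.21]. The difference between the responses was -0.67 [-0.81, -0.53]. Of the 10737 protein-coding genes that reached 1 RPKM in some library, called expressed here, 225 (2.1%) were lower still in *Hmga2*+/+ MEF and 96 (0.894%) in *Hmga2*-/- MEF. The genotypes differed by 0.30 [0.24, 0.36] without and by -0.37 [-0.50, -0.25] with TGFB1, both under 1.5-fold and in opposite directions.

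*Igfbp6*, a carrier with a preference for IGF2, was also lower after TGFB1 in both genotypes. It lies on chromosome 15 from 102144186 to 102149512 on the plus strand, and had 3.74 RPKM in *Hmga2*+/+ Ctrl, 1.47 in *Hmga2*+/+ TGFB1, 4.60 in *Hmga2*-/- Ctrl and 1.51 in *Hmga2*-/- TGFB1. Both TGFB1 libraries were low, from 108 and 110 reads. *Igfbp6* was 2.54-fold lower after TGFB1 in *Hmga2*+/+ MEF, a log2 change of -1.35 [-1.68, -1.02], and 3.05-fold lower in *Hmga2*-/- MEF, a change of -1.61 [-1.94, -1.30]. The difference between the responses, -0.26 [-0.71, 0.18], could not be told from 0 at this depth.

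*Igfbp7*, a secreted protein that binds IGFs weakly and is found in basement membranes, moved the other way. It lies on chromosome 5 from 77349240 to 77408045 on the minus strand, downstream of the window with 4 GC boxes, and had 3.11 RPKM in *Hmga2*+/+ Ctrl, 8.22 in *Hmga2*+/+ TGFB1, 3.87 in *Hmga2*-/- Ctrl and 10.4 in *Hmga2*-/- TGFB1. Both TGFB1 libraries were above both Ctrl libraries. *Igfbp7* was 2.64-fold higher after TGFB1 in *Hmga2*+/+ MEF and 2.69-fold higher in *Hmga2*-/- MEF, log2 changes of 1.40 [1.17, 1.64] and 1.43 [1.22, 1.64]. The responses differed by 0.03 [-0.28, 0.33], and the *Hmga2*-/- libraries were slightly higher at both states, by 0.31 [0.05, 0.58] and 0.34 [0.18, 0.50].

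*Igfbp3*, the main carrier of IGFs in serum, set the genotypes apart rather than the treatments. It lies on chromosome 11 from 7206091 to 7213923 on the minus strand, and had 4.59 RPKM in *Hmga2*+/+ Ctrl, 3.88 in *Hmga2*+/+ TGFB1, 10.0 in *Hmga2*-/- Ctrl and 7.15 in *Hmga2*-/- TGFB1. Both *Hmga2*-/- libraries were above both *Hmga2*+/+ libraries. Without TGFB1, *Igfbp3* read 2.18-fold higher in *Hmga2*-/- MEF, a log2 difference of 1.13 [0.99, 1.26], and 1.84-fold higher with it, a difference of 0.88 [0.73, 1.04]. Only 55 of the 10737 genes (0.512%) were higher still in the Ctrl comparison. Its log2 responses to TGFB1, -0.24 [-0.41, -0.07] with *Hmga2* and -0.49 [-0.61, -0.37] without, stayed under 1.5-fold.

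*Igfbp5*, a carrier that also binds extracellular matrix, was high in a single library. It lies on chromosome 1 from 72858065 to 72874865 on the minus strand, and had 2.53 RPKM in *Hmga2*+/+ Ctrl, 4.13 in *Hmga2*+/+ TGFB1, 2.16 in *Hmga2*-/- Ctrl and 2.62 in *Hmga2*-/- TGFB1. The *Hmga2*+/+ TGFB1 library stood above the other 3. *Igfbp5* was 1.63-fold higher after TGFB1 in *Hmga2*+/+ MEF, a log2 change of 0.71 [0.58, 0.83], against 0.27 [0.13, 0.42] in *Hmga2*-/- MEF, and the responses differed by -0.43 [-0.62, -0.24]. Under TGFB1 it was 1.58-fold lower in *Hmga2*-/- than in *Hmga2*+/+ MEF, a difference of -0.66 [-0.78, -0.54]. Both calls lie close to the threshold, and with a pseudocount of 1 RPKM the changes were 0.54 and -0.51 and no longer reached it. The genotype difference in response depended on the transcript. By the other *Igfbp5* transcript, uc029qpa.1, the log2 changes on TGFB1 were 0.66 [0.47, 0.84] with *Hmga2* and 0.44 [0.22, 0.66] without, and these intervals overlap.

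*Igfbp2*, a carrier with an integrin-binding motif and abundant in embryonic tissue, was the steadiest of the 9. It lies on chromosome 1 from 72824480 to 72852471 on the plus strand, next to *Igfbp5* on the opposite strand, and had 15.7, 14.9, 14.6 and 17.3 RPKM in the *Hmga2*+/+ Ctrl, *Hmga2*+/+ TGFB1, *Hmga2*-/- Ctrl and *Hmga2*-/- TGFB1 libraries. The highest library was 1.18-fold above the lowest. Its log2 responses to TGFB1 were -0.07 [-0.19, 0.05] with *Hmga2* and 0.24 [0.13, 0.36] without.

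**Figure D2:**
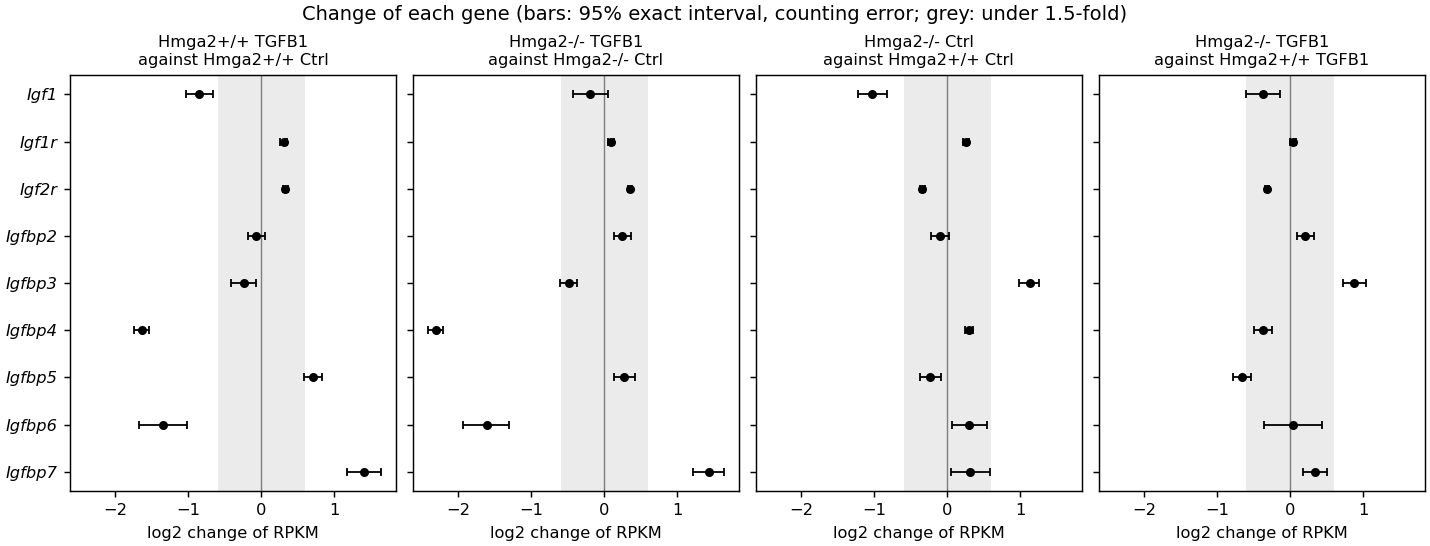
Log2 change of RPKM (horizontal axes) of each IGF gene (vertical axis) in the 4 comparisons, as points with 95% exact intervals for counting error, and a grey band for changes under 1.5-fold. *Igfbp4*, *Igfbp6* and *Igfbp7* lie outside the band in both TGFB1 comparisons, and *Igf1* and *Igfbp3* lie outside it in the Ctrl genotype comparison at -1.03 and 1.13.

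Counted over the 9 genes, 2 were higher and 3 lower after TGFB1 in *Hmga2*+/+ MEF. Among the 10737 expressed protein-coding genes, those that reached 1 RPKM anywhere, 11.4% were higher and 16.8% lower in the same comparison, and over all 63759 transcripts, many with few reads, 10.9% and 18.6% were. *Igf1* reached 1 RPKM only in *Hmga2*+/+ Ctrl, the library where it was high. In *Hmga2*-/- MEF 1 member was higher and 2 were lower after TGFB1, beside 13.1% and 15.1% of expressed genes and 11.7% and 18.2% of all transcripts. Between the Ctrl libraries 1 member, *Igfbp3*, was higher and 1, *Igf1*, was lower in *Hmga2*-/- MEF, where 2.37% and 1.64% of expressed genes and 7.43% and 7.69% of all transcripts were. Between the TGFB1 libraries *Igfbp3* was again the member that was higher and *Igfbp5* the member that was lower, where 3.11% and 1.98% of expressed genes and 8.18% and 7.74% of all transcripts were. The 4 comparisons share libraries, so a high or low value in 1 library enters 2 of them. The median log2 change of the 9 genes on TGFB1 was -0.07 with *Hmga2* and 0.09 without, and it was 0.26 and 0.04 between genotypes without and with TGFB1, beside -0.05, 0.01, -0.02 and 0.04 over the expressed genes. *Igf1r*, *Igf2r* and *Igfbp2* were the 3 members without a difference of 1.5-fold in any comparison.

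**Figure D3:**
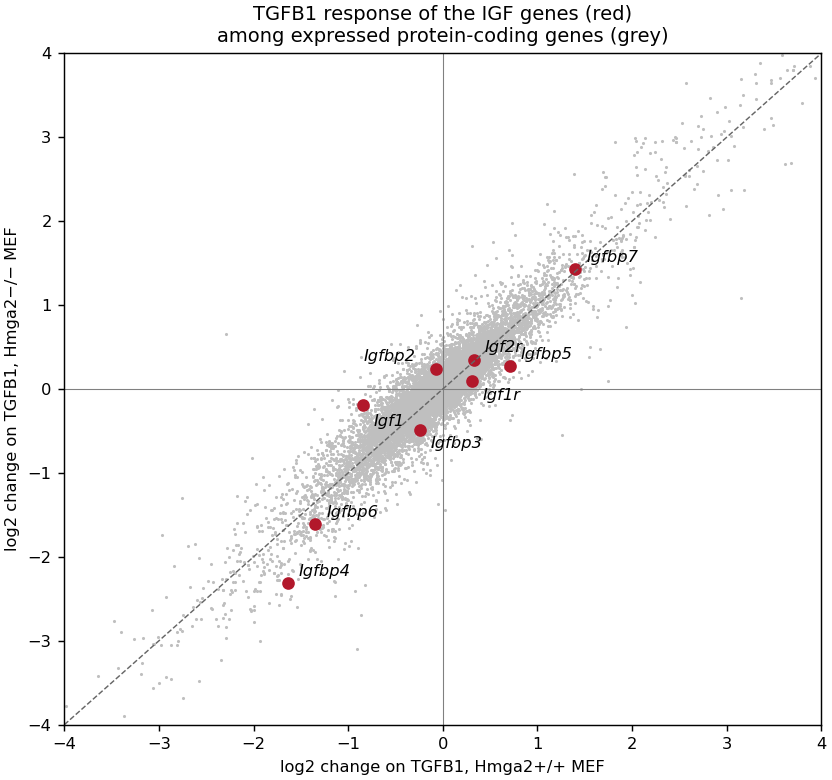
Log2 change of RPKM on TGFB1 in *Hmga2*+/+ MEF (horizontal axis) against that in *Hmga2*-/- MEF (vertical axis) for 10737 expressed protein-coding genes (grey, 43 of them outside the plotted range) and the 9 IGF genes (red), with a dashed line where both changes are equal. *Igf1*, at -0.85 and -0.19, lies above the line, *Igfbp4*, at -1.64 and -2.31, lies below it, and *Igfbp7*, at 1.40 and 1.43, lies on it.

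The shifts changed the make-up of the binding protein transcripts. The summed level of *Igfbp2* to *Igfbp7* was 60.5 RPKM in *Hmga2*+/+ Ctrl, 42.5 in *Hmga2*+/+ TGFB1, 73.2 in *Hmga2*-/- Ctrl and 46.6 in *Hmga2*-/- TGFB1, so both TGFB1 libraries were lower. *Igfbp4* made up 51.0% and 51.9% of the sum in the *Hmga2*+/+ and *Hmga2*-/- Ctrl libraries, and 23.3% and 16.4% in the TGFB1 libraries. *Igfbp7* went from 5.15% to 19.3% in *Hmga2*+/+ and from 5.28% to 22.3% in *Hmga2*-/- MEF. *Igfbp2*, with little change of its own level, thereby became the leading binding protein transcript under TGFB1, with 35.1% and 37.1%. *Igfbp3* held 7.59% and 9.12% in the *Hmga2*+/+ libraries and 13.7% and 15.3% in the *Hmga2*-/- libraries. Neighbours in the order of levels whose intervals overlapped were *Igfbp6*, *Igfbp7* and *Igfbp5* in *Hmga2*+/+ Ctrl, *Igfbp5* and *Igfbp3* in *Hmga2*+/+ TGFB1, *Igfbp6* and *Igfbp7* in *Hmga2*-/- Ctrl, and *Igfbp4* and *Igfbp3* in *Hmga2*-/- TGFB1. These shares are of RNA levels per length, and protein was not measured here.

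*Igf1* has 6 transcripts in the table, which share most of their exons and so count many of the same reads. They begin at 3 sites, 87858265, 87859052 and 87861111, and 5 of them run to the last exon, from 87930675 to 87937047, which is mostly 3′ untranslated. The sixth, uc007gqx.3, ends early at 87915441 with a length of 751 bases. An alternative coding exon of 52 bases separates the pairs that are otherwise alike, and it is shown because its inclusion changes the reading frame of the end of the IGF1 precursor. It lies at chr10:87915298-87915349 on the plus strand (mm10, GENCODE vM21) and is printed 5′ to 3′.
*Igf1* alternative exon: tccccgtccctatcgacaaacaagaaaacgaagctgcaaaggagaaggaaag

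In reads, the alternative exon was thinly covered. The difference between transcripts with and without it came to 5, 3, 3 and 2 reads in the *Hmga2*+/+ Ctrl, *Hmga2*+/+ TGFB1, *Hmga2*-/- Ctrl and *Hmga2*-/- TGFB1 libraries, which sets no direction. The 5 long transcripts had nearly the same values, for example 1.58, 0.878, 0.784 and 0.684 RPKM for uc011xle.1. The short transcript was higher per length in every library, with 2.78 RPKM in *Hmga2*+/+ Ctrl, 1.58 in *Hmga2*+/+ TGFB1, 1.81 in *Hmga2*-/- Ctrl and 1.54 in *Hmga2*-/- TGFB1, from 117, 68, 77 and 66 reads. As with the long forms, the *Hmga2*+/+ Ctrl library was the highest. All of the short transcript but its last exon, of 144 bases, also lies in uc011xle.1, so most of its length counts shared reads. By the short transcript, *Igf1* read above *Igfbp5* in *Hmga2*+/+ Ctrl and above *Igfbp6* in both TGFB1 libraries, each time with overlapping intervals. In *Hmga2*-/- Ctrl it was still the lowest of the 9 genes, below *Igfbp5* at 2.16 RPKM.

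All 6 transcripts were lower after TGFB1 in *Hmga2*+/+ MEF, with log2 changes from -0.86 to -0.81, and ranged from -0.23 to -0.19 in *Hmga2*-/- MEF. Between the Ctrl libraries they ranged more widely, from -1.04 to -0.62, and the short transcript was the smallest difference. To take out the reads they share, the short transcript was subtracted from uc011xle.1. Reads of the last exon less those of the end of the short transcript came to 501 in *Hmga2*+/+ Ctrl, 283 in *Hmga2*+/+ TGFB1, 233 in *Hmga2*-/- Ctrl and 206 in *Hmga2*-/- TGFB1. The log2 difference of the *Hmga2*-/- from the *Hmga2*+/+ Ctrl library was thus -1.12 [-1.35, -0.89] for the last exon less that end. It was -0.62 [-1.05, -0.19] for the short transcript, and these intervals overlap. Brackets for the last exon less that end treat a difference of reads as a plain count, so they are too narrow. The end of the short transcript also enters both values, which are not independent. Under TGFB1 the genotypes differed by -0.45 [-0.72, -0.19] for the last exon less that end and by -0.03 [-0.55, 0.48] for the short transcript. The RPKM of uc007gqx.3 over that of uc011xle.1 was 1.76 and 1.80 in the *Hmga2*+/+ Ctrl and TGFB1 libraries. It was 2.31 and 2.26 in the *Hmga2*-/- Ctrl and TGFB1 libraries. Both transcripts share all exons but their last, and shared reads count for both. The ratio thus mostly sets read density on the early exons against that on the long last exon. It does not give the relative amounts of both forms. For the first exons, only a difference in reads was taken. The first exon from 87859052, of 361 bases, was set against that from 87861111, of 275 bases. The former held 38, 20, 13 and 8 reads more in the *Hmga2*+/+ Ctrl, *Hmga2*+/+ TGFB1, *Hmga2*-/- Ctrl and *Hmga2*-/- TGFB1 libraries. This excess was not scaled to exon length, and *Hmga2*+/+ Ctrl was again the highest.

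**Figure D4:**
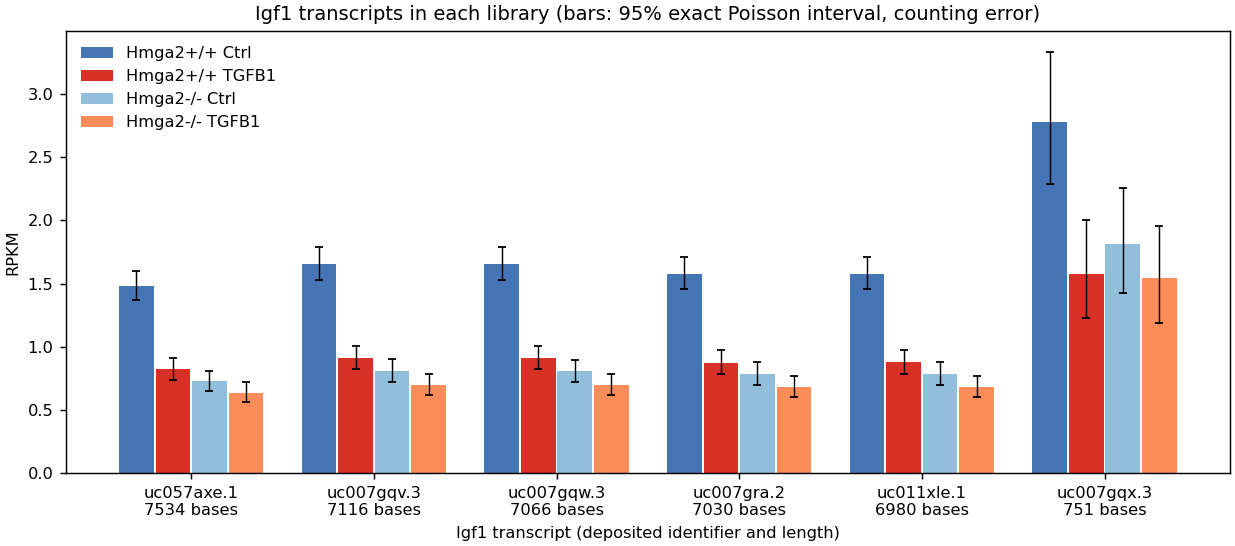
RPKM (vertical axis) of the 6 *Igf1* transcripts (horizontal axis) in the 4 libraries, as bars with 95% exact Poisson intervals. *Hmga2*+/+ Ctrl is the highest library for each transcript, and the 751-base transcript reads from 1.54 to 2.78 RPKM, above the 5 long forms.

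Among the other members, *Igf1r* has 3 transcripts and *Igfbp2*, *Igfbp5* and *Igfbp7* have 2 each, and within each gene their changes had the same sign in every comparison. The widest ranges were those of *Igfbp5*, from -0.40 to -0.23 between the Ctrl libraries, and from 0.27 to 0.44 on TGFB1 in *Hmga2*-/- MEF. Both *Igfbp7* transcripts had like responses to TGFB1, 1.40 and 1.42 with *Hmga2* and 1.43 and 1.45 without. *Igfbp4* and *Igfbp6* have 1 transcript each, and the table's *Igfbp4* transcript ends at 99052643, short of the GENCODE gene, which ends at 99054392.

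A list of 36 other genes of the pathway gave the setting of these changes. It holds the ligand *Igf2*, receptors of the insulin receptor family, carriers, proteases and the steps from IRS to AKT and FOXO. Expression of 1 RPKM or more was seen for 28 of the 36 genes. After TGFB1 3 of the 36 were higher and 7 lower in *Hmga2*+/+ MEF, and 2 higher and 11 lower in *Hmga2*-/- MEF, beside 10.9% and 18.6%, and 11.7% and 18.2%, of all transcripts. Among the 28 these counts were 3 and 4, and 2 and 6, beside 11.4% and 16.8%, and 13.1% and 15.1%, of expressed genes. Their median log2 change was -0.05 in *Hmga2*+/+ MEF, the same as over the expressed genes. Between genotypes 2 of the 28 were higher and 0 lower without TGFB1, and 0 were higher and 0 lower with TGFB1, beside 2.37% and 1.64%, and 3.11% and 1.98%, of expressed genes.

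Of the downstream steps, the PI3K regulatory subunits were lower under TGFB1 in both genotypes. *Pik3r1* had 9.29, 4.75, 7.87 and 4.84 RPKM in the *Hmga2*+/+ Ctrl, *Hmga2*+/+ TGFB1, *Hmga2*-/- Ctrl and *Hmga2*-/- TGFB1 libraries, and *Pik3r2* had 16.8, 7.71, 15.1 and 6.995 RPKM. *Foxo1*, a transcription factor that AKT keeps out of the nucleus, was higher under TGFB1, by 2.03-fold in *Hmga2*+/+ and by 2.36-fold in *Hmga2*-/- MEF.
The catalytic subunit *Pik3cb* sat on the threshold, 1.5-fold higher in both genotypes, and *Foxo4* was 1.59-fold lower in *Hmga2*-/- MEF with a log2 change of -0.46 in *Hmga2*+/+ MEF.

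Some other pathway genes differed between genotypes in level or in response. *Grb14*, an adaptor that inhibits insulin receptor signalling, had 6.19 RPKM in *Hmga2*+/+ Ctrl, 3.11 in *Hmga2*+/+ TGFB1, 15.02 in *Hmga2*-/- Ctrl and 4.12 in *Hmga2*-/- TGFB1. Its *Hmga2*-/- Ctrl library stood out, 2.43-fold above *Hmga2*+/+ Ctrl, a log2 difference of 1.28 [1.15, 1.41]. After TGFB1 *Grb14* was 1.99-fold lower in *Hmga2*+/+ and 3.65-fold lower in *Hmga2*-/- MEF, and the responses differed by -0.87 [-1.11, -0.63]. *Irs1*, the docking protein next to IGF1R, was 1.84-fold lower after TGFB1 in *Hmga2*-/- MEF and had a log2 change of -0.21 [-0.26, -0.16] in *Hmga2*+/+ MEF. *Stc1* and *Stc2*, the stanniocalcins that inhibit the proteases of IGFBPs, went opposite ways on TGFB1 in *Hmga2*+/+ MEF, *Stc1* 4.56-fold lower and *Stc2* 3.16-fold higher. In *Hmga2*-/- MEF *Stc1* was 3.64-fold lower and *Stc2* had a log2 change of 0.47, so that the *Stc2* responses differed by -1.19 [-1.67, -0.70]. The *Stc1* responses differed by 0.33 [-0.08, 0.73], an interval that includes 0. *Stc2* was also 2.50-fold higher in *Hmga2*-/- Ctrl than in *Hmga2*+/+ Ctrl. *Pappa*, the protease that cuts the IGFBP4 protein, had 1.81, 1.82, 1.5 and 2.04 RPKM in the *Hmga2*+/+ Ctrl, *Hmga2*+/+ TGFB1, *Hmga2*-/- Ctrl and *Hmga2*-/- TGFB1 libraries and was named after its values were seen. The remaining carriers *Igfbp1*, *Igfbpl1* and *Igfals* had 0 reads in all 4 libraries, and the 95% exact intervals for 0 reads reach up to 0.0434 RPKM for *Igfbp1*, 0.0242 RPKM for *Igfbpl1* and 0.0312 RPKM for *Igfals*.

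Genes with the most similar pattern over the 4 libraries were found by the Euclidean distance between centred log2 RPKM, among 10737 expressed protein-coding genes. For *Igf1* the nearest were *Tgfbr3l* at 0.16, *Tmtc2* at 0.18 and *Tert* at 0.21. *Igf1*, *Tgfbr3l* and *Tert* passed the filter of 1 RPKM only through *Hmga2*+/+ Ctrl, so their shared high value there is partly set by the filter. For *Igfbp4* they were *Arrb1* at 0.12 and *Gm4951* and *Adamts5* at 0.13, and for *Igfbp6* *Smarca2* at 0.06, *Pamr1* at 0.07 and *Eya1* at 0.10. *Igfbp7* was nearest to *Kbtbd8* at 0.04, *Epha2* at 0.08 and *Abcb1b* at 0.09. The nearest to *Igfbp3* were *Irx1* at 0.07, then *Fam124a* and *Epha4* at 0.22, and those to *Igfbp5* were *Tctn3* at 0.09, *Fkbp11* at 0.15 and *Utp14b* at 0.20. *Kbtbd8* reached 1 RPKM only in the TGFB1 libraries and *Arrb1* only in the Ctrl libraries. *Fam124a* reached it only in the *Hmga2*-/- libraries, and *Epha4* only in *Hmga2*-/- Ctrl. The likeness of these genes to *Igfbp7*, *Igfbp4* and *Igfbp3* is thus also partly set by the filter. With 4 libraries and many genes, near patterns are a description of these values.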

How the data were processed

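The authors used Trimmomatic for trimming, HISAT2 2.1.0 for mapping to mm10 and HOMER for counting on the annotated strand of UCSC known genes. The deposited values are RPKM to 3 decimals, with transcript lengths. The header of the table names exons as counted feature and the methods name genes. The *Igf1* lengths lie within 9 bases of summed exons. RPKM times length gave whole reads (within 0.1 read) for 100% of 1863 to 1912 low values per library, which gave the depth, reads and intervals.

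Transcripts were assigned to GENCODE vM21 genes with at least 50% of their span on the same strand (57708 of 63759). The longest gene body stood for a gene. Values of 0 RPKM were set to 0.001. Intervals are Poisson for levels, binomial for ratios, and normal on the log scale for differences between responses. With 1 library per condition, no test was run. The members, the pathway list and the markers were chosen with earlier results of these data known. Named genes are all members, every *Igf1* transcript, pathway genes with at least 1 RPKM and a 1.5-fold change, *Hmga2*, markers of TGFB1 treatment (not reported here), and the 3 genes nearest to each changed member, and 2 genes were added after their values were seen, as stated beside them. Alternatives changed the pseudocount, the filter, the scaling, the transcript and the threshold. The steps were tested on simulated data. Python 3.11.15, numpy 2.4.6, pandas 2.3.3, scipy 1.17.1 and matplotlib 3.10.9 were used. Promoter sequences are from RefSeq (GRCm38.p6).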

Additional observations from a re-analysis of the deposited data

Results flagged for a closer look

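*Igfbp2* had log2 changes of opposite sign on TGFB1 in both genotypes, -0.07 in *Hmga2*+/+ and 0.24 in *Hmga2*-/- MEF. The difference of 0.31 [0.15, 0.48] was not tested, since each condition is 1 library, and the *Hmga2*+/+ change has a counting interval of -0.19 to 0.05 that includes 0.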

How the results depend on the processing

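The log2 changes of the 9 genes were recomputed under 5 alternatives, and those of the *Igf1* transcripts under 3, and no change past 1.5-fold reversed its direction there. The filter on low RPKM and the 2-fold threshold were applied to counts. Of 180 log2 changes of the 9 genes, 169 moved by less than their counting interval and 11 moved by more. All 45 differences in response stayed within it, though those of *Igf2r* and *Igfbp7*, 0.02 and 0.03, both became -0.02 with rescaled libraries. Of 72 changes of *Igf1* transcripts, 62 stayed within it. Of 56 counts of members past 1.5-fold, 50 stayed within 1.5 times. With a pseudocount of 1 RPKM, members higher after TGFB1 in *Hmga2*+/+ MEF went from 2 to 1, members lower in *Hmga2*-/- than in *Hmga2*+/+ Ctrl went from 1 to 0, and members lower in *Hmga2*-/- than in *Hmga2*+/+ TGFB1 went from 1 to 0. With a threshold of 2-fold, the first of these went from 2 to 1, and between the TGFB1 libraries both the 1 member higher and the 1 lower went to 0. With the transcript of highest mean RPKM, the short one, the *Igf1* genotype difference was -0.62 without and -0.03 with TGFB1.

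Counts over the 36 pathway genes were recomputed in ways chosen after seeing the data, and 23 of 56 moved by more than 1.5 times. After TGFB1 in *Hmga2*+/+ MEF, the 7 lower became 4 with a pseudocount of 1 or 0.1 RPKM and with at least 1 RPKM. In *Hmga2*-/- MEF the 2 higher became 1 with either pseudocount, with rescaled libraries and with a threshold of 2, and the 11 lower became 5 with a pseudocount of 1 or a threshold of 2, 7 with a pseudocount of 0.1 and 6 with at least 1 RPKM. Between Ctrl libraries the 2 lower became 0 with either pseudocount or at least 1 RPKM, and 1 with a threshold of 2. Between TGFB1 libraries the 1 higher became 0 with either pseudocount, with at least 1 RPKM, with the median over transcripts and with a threshold of 2, and the 3 lower became 0 with a pseudocount of 1 or at least 1 RPKM and 1 with a pseudocount of 0.1. Some of the counted genes had few reads. Of those lower after TGFB1 in *Hmga2*+/+ MEF, *Insrr* had 11 reads in Ctrl and 5 in TGFB1, *Irs4* had 6 and 3, and *Inpp5d* had 1 and 0. The gene higher between the TGFB1 libraries was *Irs4*, with 3 reads in *Hmga2*+/+ and 5 in *Hmga2*-/-. The part of such genes in each move was not tested. Rescaling shifted the comparisons by at most 0.04 in size on the log2 scale. No paired analysis was possible because each condition holds a single library. The *Igf1* exon counts rest on few reads, and the spread between cultures was not measured.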
